A study of Mus musculus with 10 samples.

Results

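The genes described here are 54 that bring secreted proteins into the endoplasmic reticulum, fold them there and send them on to the Golgi. They were chosen by name from the steps of this route, with earlier results of these data known. They are 54 of the 55291 genes in the expression table. Grouped by step, 9 serve translocation, 4 the signal peptidase, 5 N-glycosylation, 15 folding, 8 degradation of misfolded proteins and 11 export and retrieval, and 2 are stress sensors. All 54 passed the filter on low values (at least 1 FPKM in at least 5 libraries). The glands came from mice labelled as female, of strain C57BL /6J and aged 8 weeks, all operated on under pentobarbital. In the ligated group the duct of the right submandibular gland had been tied at both ends, and in the sham group the skin was opened and the gland dissected with no tie. Each group had 5 libraries, each from the gland of 1 mouse at day 7. Tying the duct blocks the flow of saliva, and the study asked what this does to gene expression in the gland.

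A protein bound for secretion enters the endoplasmic reticulum through the Sec61 channel, loses its signal peptide, receives sugar chains and is folded by chaperones and disulfide isomerases. Properly folded cargo leaves in COPII-coated vesicles, and what fails to fold is pulled back into the cytosol and degraded. Salivary acinar and duct cells make secreted protein in bulk and carry much of this machinery, and so do antibody-making plasma cells. The sensors Atf6 and Ern1 raise the expression of many of these genes when unfolded protein accumulates, in what is called the unfolded protein response.

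The libraries held 12105695 to 17305590 assigned reads, a depth recovered from the steps between low values. Acinar markers summed to between 12865 and 63298 FPKM (fragments per kilobase of gene, scaled to library size) in ligated glands and between 147064 and 274938 FPKM in sham glands, and 9 of the 12 were lower in every ligated library than in any sham library. Dcpp1, Dcpp2, Dcpp3 and Smgc, which are on the list of serous and seromucous acinar markers, were at 0 in ligated 4. They also varied widely within sham glands (Smgc 2.17 to 18.1 FPKM, Dcpp2 1779 to 12552 FPKM). Markers of macrophages (8 of 8), fibroblasts (7 of 7), adipocytes (6 of 6) and skeletal muscle (6 of 6) were higher in every ligated library than in any sham library. Transcripts of lymph nodes stood at 260.0 to 369 summed FPKM in ligated 1, 2 and 3 and 416 FPKM in sham 1, against 10.1 FPKM or less in the other 6 libraries. Parotid transcripts summed to 24094 to 47428 FPKM in ligated 2, 3 and 5 and 27589 FPKM in sham 1, against 18347 FPKM or less in the other 6. In those other 6 the sum was mostly Car6 (4643 to 18095 FPKM). Bpifa2, Amy1, Prpmp5, Cst10 and Dnase1 were each higher in ligated 2, 3 and 5 and sham 1 than in any other library. Amy1 had 2682 to 8365 FPKM there, against 4.45 to 28.3 FPKM in the other 6. Prp2 was at 8.41 FPKM or less in all libraries. Y-linked transcripts were present in all 10 libraries (Ddx3y 3.58 FPKM or more) and Xist reached at most 0.0267 FPKM, which goes against the label female. In a whole gland, fewer cells of a type and less RNA per cell cannot be told apart.

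Most of the 54 genes did not pass the test, whereas most of the genes tested were higher in ligated than in sham glands as deposited. Genes were tested with limma on log2(FPKM + 1), and a gene counted as changed at a Benjamini-Hochberg adjusted p under 0.05 over 11856 genes together with a log2 fold change beyond 1 in either direction. By this rule 0 of 54 members were higher, against a background of 17.1% of all genes, and 1 of 54, Sec23b, was lower, against 1.16%. At the adjusted p alone 3 were higher (background 56.8%), namely Canx, Stt3a and Derl1, each of which lay below 0 after median-ratio scaling and after quantile normalization. Another 7 were lower (background 3.35%), namely Herpud1, Sel1l, Sec23b, Lman1, Sec61a1, Dnajc3 and Edem2, of which the last 3 lay above 0 once libraries were set to equal sums. The adjustment covers both directions, and most calls were higher. It therefore does not hold false calls among the lower genes to 0.05. Sec61a1, Sel1l and Edem2 passed with unadjusted limma p of 0.0289, 0.0265 and 0.0221. In all 21 members lay above 0 and 33 below, with a median of -0.04. The median of all genes tested was 0.53, and all 54 members lay below it. These counts at the adjusted p moved with single libraries. The lower count was 2 without ligated 2, ligated 3, sham 4 or sham 5, 3 without ligated 4, 4 without ligated 5 and 13 without ligated 1. The higher count was 1 without any 1 of the 5 ligated libraries, sham 2 or sham 3. Without ligated 1 the background was 4.39% lower and 54.6% higher. Backgrounds of the other fits that left out libraries are not given here. Whether these counts moved more than those of all genes was not examined. Without the 4 libraries with parotid transcripts only Sec23b passed among the 54. That fit had only ligated 1 and ligated 4 against sham 2 to 5. In it the 7 members named as lower stayed below 0 and the 3 named as higher stayed above 0.

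**Figure D1:**
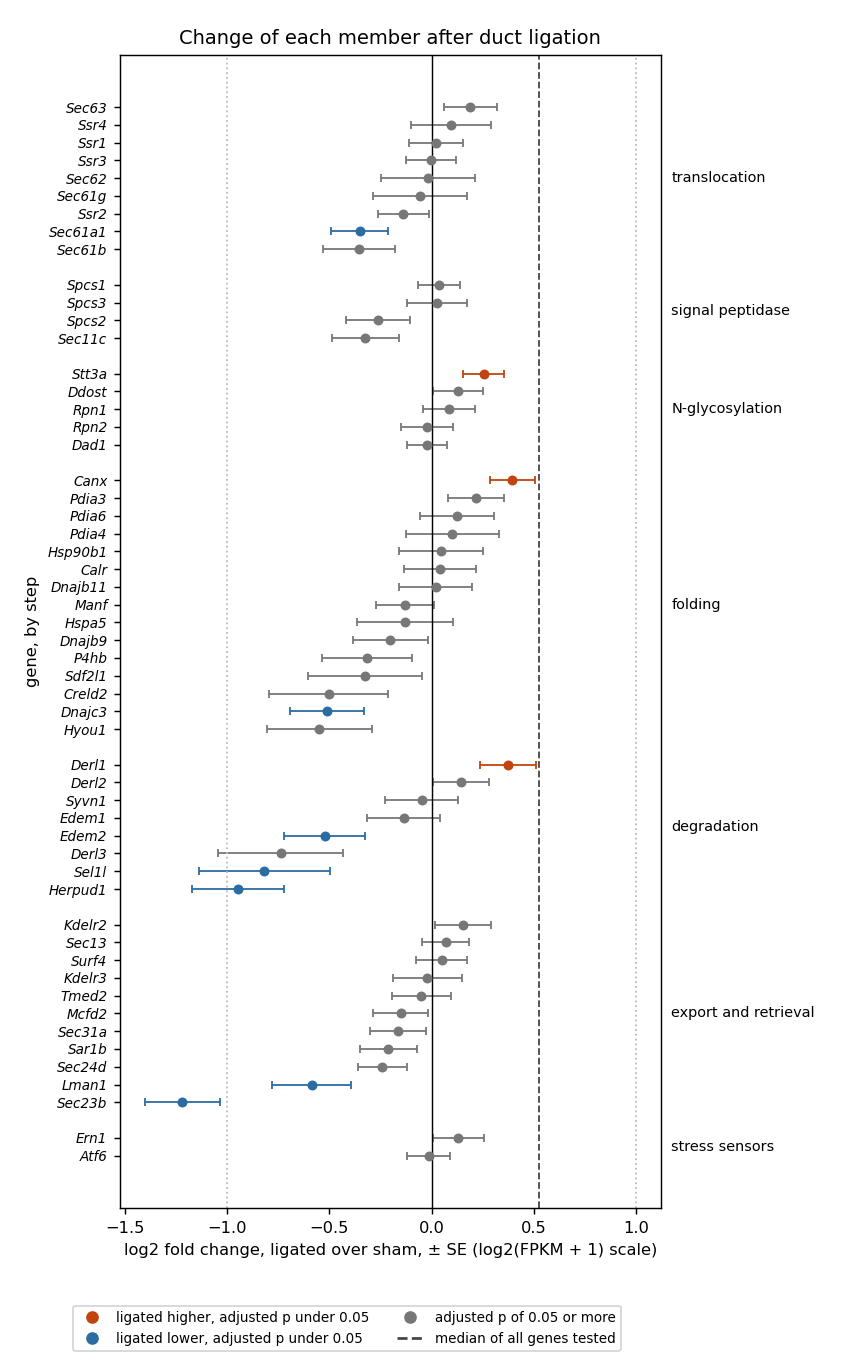
Log2 fold change of each of the 54 genes, ligated over sham, on the log2(FPKM + 1) scale as deposited (x axis), by gene within step (y axis). Points are estimates, bars are SE, the dashed line is the median of all genes tested (0.53) and dotted lines mark a log2 fold change of 1 in size. Sec23b lies past -1, and all 54 points lie left of the dashed line. The 3 genes drawn as higher lie below 0 after quantile normalization or median-ratio scaling, and with equal sums Sec61a1, Dnajc3 and Edem2 lie above 0.

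These directions rest on how libraries were put on 1 scale, and the summed FPKM was 337121 to 454370 in ligated libraries and 504092 to 604875 in sham libraries. With every library set to the same sum, 0 members were higher by both criteria (background 56.3%) and 0 lower (background 0.658%). At the adjusted p alone that scaling gave 30 higher (background 83.7%) and 1 lower (background 1.04%). After median-ratio scaling 0 were higher (background 6.84%) and 11 lower (background 4.2%), and 0 (background 14.6%) and 48 (background 16.9%) at the adjusted p alone. Quantile normalization gave 0 higher (background 5.81%) and 10 lower (background 4.29%), and 0 (background 12.5%) and 44 (background 18.7%) at the adjusted p alone. All 54 members lay below the median of all genes under each of these 4 scalings. Their median minus that of all genes was -0.56 as deposited, -0.57 with equal sums, -0.69 after median-ratio scaling and -0.55 after quantile normalization. Equal sums and median-ratio scaling apply 1 factor per library and so shift all genes by nearly the same amount. Under them the place of the members against that median was nearly fixed in advance. Sec23b was lower at the adjusted p under all 4, with log2 fold changes between -1.87 and -0.69.

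**Figure D2:**
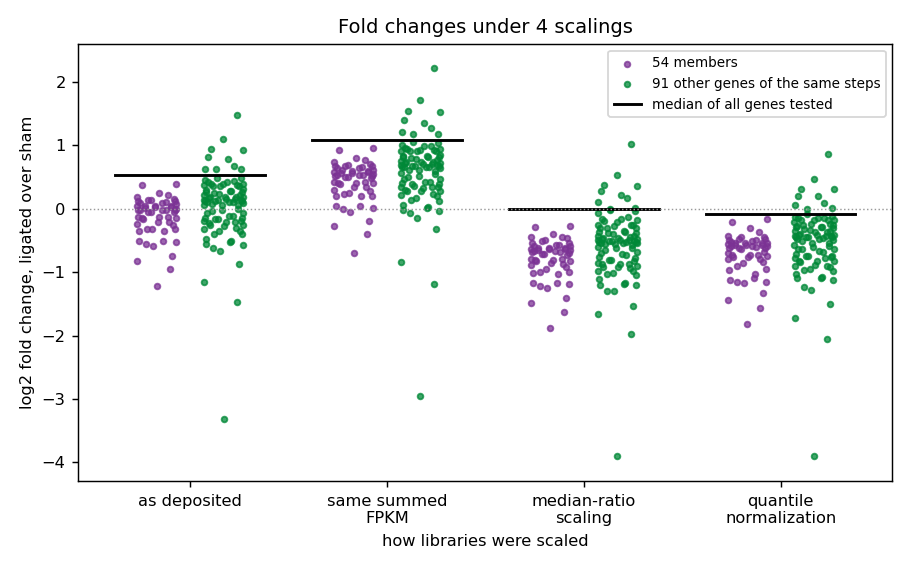
Log2 fold changes, ligated over sham (y axis), of the 54 genes and of 91 other genes of the same steps under 4 ways of scaling the libraries (x axis). Points are genes and black lines are the median of all genes tested. The 54 genes move as a block with the scaling, from a median of 0.51 with equal sums to -0.70 after median-ratio scaling, and stay below the black line in each. Equal sums and median-ratio scaling shift all genes by nearly the same amount, so they could hardly change this.

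Promoter sequences are shown for 7 members because the elements through which the unfolded protein response is known to act lie near the start of many of these genes. RefSeq promoters on GRCm38.p6, which run from 250 bases before the start to 50 after it, were matched for 43 of the 54 members and searched on both strands for 3 motifs. The element ERSE (CCAAT and CCACG with any 9 bases between them) was found in 9 of 43 members and in 0.137% of 27025 genes. ERSE-II (ATTGG and CCACG with any 1 base between them) was found in 2 of 43, against 0.044% of all genes, and UPRE (TGACGTGG) in 2 of 43, against 0.714%. The motifs share the letters CCACG, and no matches of different motifs overlapped. Of the 11 members with ERSE or ERSE-II, 1 was higher (background 56.8%) and 2 were lower (background 3.35%) at the adjusted p. The other 8 did not pass, and log2 fold changes of the 11 lay between -0.95 and 0.40. Capitals mark the match in each promoter, which is written 5′ to 3′ along the gene's own strand. The windows are chr2:34771840-34772139 (plus strand) for Hspa5, chr11:50325624-50325923 (minus strand) for Canx, chr14:118937682-118937981 (plus strand) for Dnajc3, chr15:88819396-88819695 (plus strand) for Creld2, chr10:75893148-75893447 (plus strand) for Derl3, chr8:94386179-94386478 (plus strand) for Herpud1 and chr3:123267246-123267545 (plus strand) for Sec24d. The motif is ERSE in the first 5, reversed in Creld2 and Derl3, ERSE-II in Herpud1 and UPRE in Sec24d.
Hspa5: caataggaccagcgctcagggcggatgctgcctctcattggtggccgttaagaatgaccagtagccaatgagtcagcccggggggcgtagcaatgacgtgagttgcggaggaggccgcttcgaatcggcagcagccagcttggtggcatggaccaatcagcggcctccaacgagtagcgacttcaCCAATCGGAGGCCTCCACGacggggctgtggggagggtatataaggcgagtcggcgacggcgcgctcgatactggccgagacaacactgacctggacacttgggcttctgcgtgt
Canx: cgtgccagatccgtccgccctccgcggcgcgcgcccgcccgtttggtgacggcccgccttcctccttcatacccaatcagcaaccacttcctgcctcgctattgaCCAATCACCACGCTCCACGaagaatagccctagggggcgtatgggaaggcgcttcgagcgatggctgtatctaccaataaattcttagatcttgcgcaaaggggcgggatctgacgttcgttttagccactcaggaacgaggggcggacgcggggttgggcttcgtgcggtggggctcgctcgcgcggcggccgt
Dnajc3: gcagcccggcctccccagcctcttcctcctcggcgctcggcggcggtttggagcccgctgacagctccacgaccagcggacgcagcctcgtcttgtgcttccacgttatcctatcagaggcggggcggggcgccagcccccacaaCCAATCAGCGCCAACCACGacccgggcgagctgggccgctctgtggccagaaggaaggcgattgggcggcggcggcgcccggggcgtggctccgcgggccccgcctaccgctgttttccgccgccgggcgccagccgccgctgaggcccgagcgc
Creld2: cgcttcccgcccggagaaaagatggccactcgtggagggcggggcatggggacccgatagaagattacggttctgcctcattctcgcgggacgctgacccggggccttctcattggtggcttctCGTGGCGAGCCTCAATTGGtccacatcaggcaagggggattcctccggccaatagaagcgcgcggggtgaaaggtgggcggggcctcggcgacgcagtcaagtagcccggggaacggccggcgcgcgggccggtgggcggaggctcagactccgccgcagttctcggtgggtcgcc
Derl3: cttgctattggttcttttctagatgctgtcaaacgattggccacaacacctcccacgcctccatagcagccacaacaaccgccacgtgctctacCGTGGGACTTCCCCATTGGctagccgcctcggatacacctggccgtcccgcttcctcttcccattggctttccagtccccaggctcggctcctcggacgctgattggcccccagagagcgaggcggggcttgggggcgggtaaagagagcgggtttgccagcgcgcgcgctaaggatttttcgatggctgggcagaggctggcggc
Herpud1: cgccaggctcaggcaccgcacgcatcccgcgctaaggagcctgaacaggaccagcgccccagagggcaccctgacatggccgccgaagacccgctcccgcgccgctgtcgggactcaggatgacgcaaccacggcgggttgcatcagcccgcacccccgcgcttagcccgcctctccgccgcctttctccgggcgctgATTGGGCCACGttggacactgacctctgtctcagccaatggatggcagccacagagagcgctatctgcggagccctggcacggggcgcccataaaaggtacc
Sec24d: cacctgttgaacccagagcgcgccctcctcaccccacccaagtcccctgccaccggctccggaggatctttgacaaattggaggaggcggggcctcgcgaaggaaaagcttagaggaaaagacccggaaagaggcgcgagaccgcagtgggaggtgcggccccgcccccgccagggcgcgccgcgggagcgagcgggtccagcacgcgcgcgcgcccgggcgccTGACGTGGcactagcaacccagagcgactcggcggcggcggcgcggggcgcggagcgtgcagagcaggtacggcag

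At the entry step, 1 of 9 translocation genes was lower (background 3.35%) and 0 higher (background 56.8%) at the adjusted p. Sec61a1, the pore of the channel (chromosome 6 at 88503579 to 88518905 on GRCm38, minus strand), stood at 57.5, 46.6, 43.2, 46.3 and 49.7 FPKM in ligated glands, against 58.9, 52.6, 55.7, 75.5 and 70.6 FPKM in sham glands. Ligated 1 reached into the sham range and the other 4 ligated libraries lay below it. Its log2 fold change was -0.35 ± 0.14 (SE, limma adjusted p = 0.0484), and 0.20 with equal sums. Over 20 alternatives the adjusted p ran from 0.00123 to 0.336 and was under 0.05 in 7, and an antisense gene overlaps an exon.

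Sec61b, a small subunit of the channel, had the most negative value of the step, with 142, 82.3, 90.8, 85.2 and 97.8 FPKM in ligated glands and 113, 113, 116, 162 and 128 FPKM in sham glands. Here too ligated 1 lay inside the sham range and the other 4 below it. The log2 fold change was -0.36 ± 0.18 (limma adjusted p = 0.101). Sec63, which with Sec62 helps feed finished chains into the channel, had the most positive value of the step at 13.6, 15.4, 14.9, 15.5 and 16.7 FPKM in ligated glands and 12.3, 12.1, 10.9, 15.7 and 15.8 FPKM in sham glands. These groups overlapped (0.19 ± 0.13, limma adjusted p = 0.221). The remaining 6, among them the translocon-associated subunits Ssr1 to Ssr4, lay between -0.14 and 0.09.

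In the signal peptidase complex, which cuts off the signal peptide, 0 of 4 genes passed at the adjusted p (background 56.8% higher and 3.35% lower). Sec11c, 1 of its catalytic subunits, had 17.5, 12.4, 12.8, 12.4 and 9.78 FPKM in ligated glands and 18.7, 16.1, 12.3, 17.1 and 17.8 FPKM in sham glands (-0.32 ± 0.16, limma adjusted p = 0.102). Spcs1, an accessory subunit, had 42.3, 41.5, 44.3, 39.7 and 39.2 FPKM in ligated glands and 43.2, 41.4, 37.5, 38.4 and 41.3 FPKM in sham glands. The groups overlapped (0.04 ± 0.10, limma adjusted p = 0.763).

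Among 5 subunits of the oligosaccharyltransferase, which transfers sugar chains to entering proteins, only Stt3a passed at the adjusted p, as 1 higher (background 56.8%) and 0 lower (background 3.35%). Stt3a, a catalytic subunit that works as the chain enters (chromosome 9 at 36729344 to 36767679, minus strand), had 25.3, 24.7, 23.8, 25.0 and 25.8 FPKM in ligated glands, against 20.4, 19.0, 20.4, 20.97 and 23.1 FPKM in sham glands. Every ligated library lay above every sham library. The log2 fold change was 0.25 ± 0.10 (limma adjusted p = 0.0456), but -0.40 after median-ratio scaling (adjusted p = 0.0342) and -0.30 after quantile normalization. The adjusted p was under 0.05 in 7 of 20 alternatives, and 1 of these was median-ratio scaling, where Stt3a was lower. Rpn2 and Dad1, structural subunits, gave the most negative values of the step, both -0.02, with Dad1 at 23.6, 24.8, 23.6, 22.9 and 21.9 FPKM in ligated glands and 25.8, 24.7, 22.7, 22.8 and 23.1 FPKM in sham glands.

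Of the 15 folding genes, 1 was higher (background 56.8%) and 1 lower (background 3.35%) at the adjusted p. Canx, the membrane-bound lectin chaperone calnexin (chromosome 11 at 50293961 to 50325673, minus strand), had 74.8, 75.8, 80.2, 80.2 and 78.0 FPKM in ligated glands and 64.3, 52.9, 54.9, 57.9 and 65.6 FPKM in sham glands. The groups did not overlap, and the ligated libraries varied little. The log2 fold change was 0.40 ± 0.11 (limma adjusted p = 0.0125), and -0.27 after median-ratio scaling and -0.20 after quantile normalization. The adjusted p was under 0.05 in 16 of 20 alternatives. Calr, the soluble lectin chaperone, averaged 336 ± 67.6 FPKM in ligated glands and 324 ± 39.5 FPKM in sham glands (SD, n = 5 each), with overlap.

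Dnajc3, a co-chaperone that is also known to inhibit stress kinases, had 127, 63.7, 76.9, 86.7 and 94.8 FPKM in ligated glands, against 119, 116, 122, 130.2 and 141 FPKM in sham glands. All ligated libraries but ligated 1 lay below the sham range. The log2 fold change was -0.51 ± 0.18 (limma adjusted p = 0.0299), and 0.04 with equal sums. The adjusted p was under 0.05 in 12 of 20 alternatives.

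Hspa5, the main chaperone BiP, had the highest level per length of the 54 genes in each group. It stood at 646, 308, 389, 489 and 459.7 FPKM in ligated glands and 489, 378, 639, 407 and 569 FPKM in sham glands. The groups overlapped throughout (-0.13 ± 0.24, limma adjusted p = 0.635), and the adjusted p was under 0.05 in 0 of 20 alternatives, whose log2 fold changes ran from -0.81 to 0.43.

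Hyou1, which exchanges the nucleotide of Hspa5, had the most negative value of the step at 97.9, 36.6, 45.1, 62.8 and 58.6 FPKM in ligated glands and 71.6, 61.9, 104, 85.0 and 105 FPKM in sham glands. Ligated 1 lay within the sham range, below its 2 highest libraries (-0.55 ± 0.26, limma adjusted p = 0.0809). The disulfide isomerases P4hb, Pdia3, Pdia4 and Pdia6 gave log2 fold changes between -0.32 and 0.22, none past the adjusted p. P4hb and Calr were the next highest genes after Hspa5 in ligated and in sham glands.

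Degradation had the lowest median of the 7 steps, -0.33, with 3 of 8 genes lower (background 3.35%) and 1 higher (background 56.8%) at the adjusted p. Herpud1, a membrane protein that helps assemble the degradation complex (chromosome 8 at 94386438 to 94395377, plus strand), had 222, 100.3, 133, 96.1 and 138 FPKM in ligated glands, against 231, 225, 307, 245 and 276 FPKM in sham glands. No ligated library reached the sham range, with ligated 1 just below it. The log2 fold change was -0.95 ± 0.23 (limma adjusted p = 0.00576), and over 20 alternatives it ran from -1.62 to -0.40, with an adjusted p under 0.05 in 18.

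Sel1l, the scaffold of the same complex, had 117, 33.7, 32.7, 49.3 and 61.5 FPKM in ligated glands and 74.0, 75.2, 109, 97.5 and 119.6 FPKM in sham glands. Ligated 1 stood near the top of the sham range and the other 4 below it (-0.82 ± 0.32, limma adjusted p = 0.0453; over the alternatives 0.00338 to 0.385, under 0.05 in 8 of 20). Edem2, which trims mannose from proteins marked for degradation, had 42.7, 24.9, 22.2, 23.8 and 24.5 FPKM in ligated glands and 38.1, 36.7, 31.1, 52.8 and 39.2 FPKM in sham glands. It shows the same layout (-0.52 ± 0.20, limma adjusted p = 0.0394), with a log2 fold change of 0.02 under equal sums and an adjusted p under 0.05 in 9 of 20 alternatives.

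The derlins are membrane proteins of the exit channel for misfolded proteins. Derl1 had 45.6, 38.8, 39.1, 44.5 and 41.4 FPKM in ligated glands and 36.1, 27.1, 26.0, 35.3 and 37.7 FPKM in sham glands, with no overlap. Its log2 fold change was 0.37 ± 0.14 (limma adjusted p = 0.0364), and -0.29 after median-ratio scaling and -0.17 after quantile normalization, with an adjusted p under 0.05 in 8 of 20 alternatives. Derl3 had 106, 27.4, 35.7, 52.4 and 47.2 FPKM in ligated glands and 71.0, 72.2, 85.9, 74.8 and 106 FPKM in sham glands (-0.74 ± 0.30, limma adjusted p = 0.0547). Ligated 1 was level with the highest sham library and the other 4 ligated libraries lay below all sham libraries. Derl2 was the lowest of the 54 genes per length, at 6.77 ± 0.546 FPKM in ligated glands and 6.10 ± 1.12 FPKM in sham glands (SD, n = 5 each). The ligase Syvn1, the catalytic partner of Sel1l, had 34.2 ± 4.83 FPKM in ligated glands and 36.0 ± 8.23 FPKM in sham glands, with overlap.

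The largest change of the 54 was in the COPII coat, and 2 of the 11 export and retrieval genes were lower (background 3.35%) and 0 higher (background 56.8%) at the adjusted p. Sec23b, an inner-coat subunit (ENSMUSG00000027429.16, chromosome 2 at 144556229 to 144590749, plus strand), had 27.7, 21.6, 19.1, 21.4 and 19.1 FPKM in ligated glands, against 57.9, 41.6, 38.1, 71.8 and 55.1 FPKM in sham glands. Every ligated library, ligated 1 included, lay below every sham library. Sec23b fell by 1.22 ± 0.18 on the log2 scale (limma adjusted p = 0.000592), and its adjusted p was under 0.05 in all 20 alternatives, the largest being 0.0273 without the 4 libraries with parotid transcripts. With equal sums its log2 fold change was -0.69, short of the fold criterion.

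Its paralog Sec23a, which can take the same place in the coat, had 5.55, 11.4, 8.43, 7.71 and 10.1 FPKM in ligated glands, against 5.05, 4.10, 3.16, 3.70 and 3.67 FPKM in sham glands. Every ligated library lay above every sham library (0.94 ± 0.18, limma adjusted p = 0.00208). Ratios of paralogs were taken within each library as the difference of log2(FPKM + 1), which understates the ratio where a gene is low. The log2 ratio of Sec23b to Sec23a was 2.13, 0.87, 1.09, 1.36 and 0.86 in ligated glands, against 3.28, 3.06, 3.23, 3.95 and 3.59 in sham glands. It differed by -2.16 (exact permutation test, two-sided, p = 0.00794, the smallest that 5 against 5 libraries can give; adjusted over 10 paralog pairs p = 0.0265), and by -2.34 with a pseudocount of 0.1. Sec23b remained the higher of the pair per length in 10 of 10 libraries. Fibroblast markers summed to 1057 to 5150 FPKM in ligated glands and 134 to 248 FPKM in sham glands. Their part in the ratio was not tested.

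**Figure D3:**
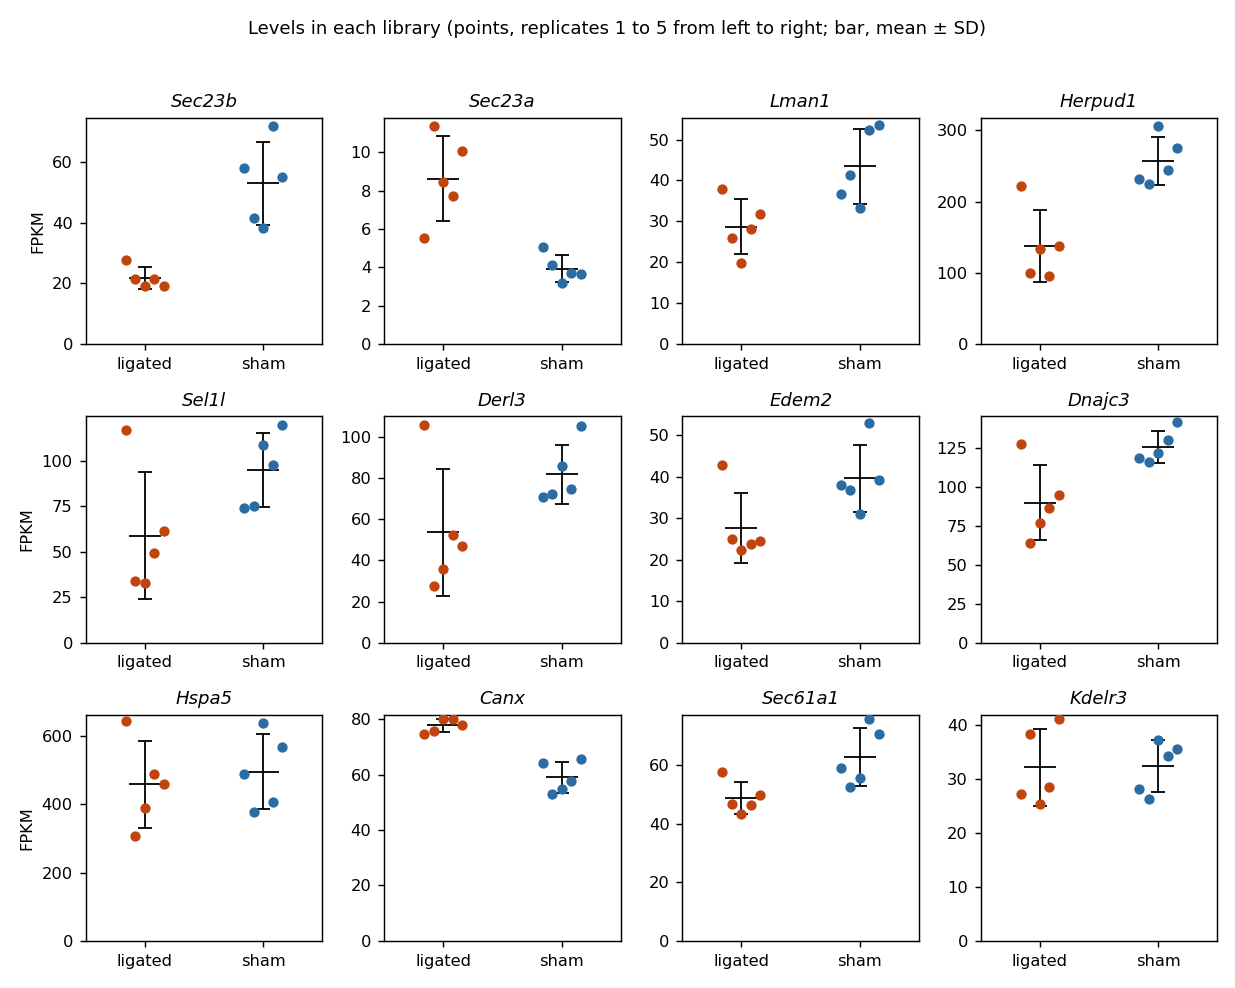
FPKM (y axis) of 12 genes in each library of the ligated and sham groups (x axis). Points are libraries, bars are mean ± SD. Sec23b and Herpud1 are lower and Canx and Sec23a higher in all 5 ligated libraries than in any sham library as deposited, while the direction of Canx reverses after median-ratio scaling and quantile normalization. In Sel1l, Edem2 and Dnajc3, ligated 1 lies in the sham range and the other 4 ligated libraries below it, and in Derl3 ligated 1 lies level with the highest sham library and the other 4 below all of them.

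Lman1, the lectin receptor that carries some glycoproteins into COPII vesicles together with Mcfd2, had 37.8, 25.9, 19.8, 28.2 and 31.8 FPKM in ligated glands, against 36.7, 41.3, 33.3, 52.3 and 53.6 FPKM in sham glands. Only ligated 1 reached the sham range. The log2 fold change was -0.59 ± 0.19 (limma adjusted p = 0.0239), and -0.05 with equal sums, with an adjusted p under 0.05 in 13 of 20 alternatives. Mcfd2 did not pass the test (-0.15 ± 0.13, limma adjusted p = 0.335).

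The retrieval receptors return escaped chaperones from the Golgi. Kdelr2, with the most positive value of the step, had 61.0, 79.4, 68.7, 60.2 and 84.8 FPKM in ligated glands and 67.4, 55.5, 58.6, 66.6 and 67.9 FPKM in sham glands. Kdelr3 had 27.2, 38.3, 25.3, 28.5 and 41.0 FPKM in ligated glands and 28.1, 26.3, 37.2, 34.2 and 35.5 FPKM in sham glands. Both overlapped (0.15 ± 0.14 and -0.02 ± 0.17, limma adjusted p = 0.341 and 0.915), and in both ligated 2 and ligated 5 were the highest ligated libraries. The outer-coat subunits Sec13 and Sec31a, the coat's GTPase Sar1b and the cargo receptors Surf4 and Tmed2 lay between -0.21 and 0.07.

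Neither of the 2 sensors passed at the adjusted p (background 56.8% higher and 3.35% lower). Atf6, which is cut in the Golgi to release a transcription factor, had 14.1, 13.2, 13.7, 15.1 and 14.7 FPKM in ligated glands and 15.3, 14.7, 12.5, 15.2 and 14.01 FPKM in sham glands (-0.02 ± 0.10, limma adjusted p = 0.902). Ern1, the kinase and nuclease that splices Xbp1, had 12.7, 12.4, 10.3, 15.8 and 12.1 FPKM in ligated glands and 11.1, 10.6, 10.6, 12.2 and 12.6 FPKM in sham glands (0.13 ± 0.13, limma adjusted p = 0.376). The groups overlapped in each. Splicing of Xbp1 and cleavage of Atf6 are not seen in gene-level values.

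Paralogs that share a step were compared within each library for 10 pairs, and 3 passed. How often ratios of other gene pairs would pass was not examined. All 54 members lay below the median log2 fold change of all genes tested (0.53). The ratio of a member to a typical gene therefore falls too. Besides Sec23b to Sec23a, the log2 ratio of Sec24d to Sec24c, which bind cargo in the inner coat, was 0.05, -0.05, -0.06, -0.29 and 0.02 in ligated glands and 0.11, 0.41, 0.45, 0.41 and 0.46 in sham glands. It differed by -0.43 with no overlap (adjusted p = 0.0265, two-sided exact permutation test), and sham 1 stood closest to the ligated libraries. The log2 ratio of Creld2, a chaperone-like protein induced by stress, to Creld1 was 5.08, 3.64, 4.20, 4.13 and 4.46 in ligated glands and 5.44, 5.51, 5.82, 5.17 and 5.26 in sham glands. This difference of -1.14 also came without overlap (adjusted p = 0.0265 in the same exact test). With any 1 library left out, the exact p of each of these 3 ratios was 0.0159, the smallest that 4 against 5 libraries can give. The adjusted p was then 0.0529, or 0.0397 without ligated 1 or ligated 3. Creld1 was at 4.66 ± 0.688 FPKM in ligated glands and 2.75 ± 1.00 FPKM in sham glands (SD, n = 5 each).

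The ratio of Derl3 to Derl2 differed by -0.88 and that of Sec11c to Sec11a by -0.44, short of the threshold (exact permutation tests, two-sided, adjusted p = 0.0992 and 0.111). The first passed without ligated 1 and the second without ligated 3. Kdelr3 to Kdelr2 (-0.17), Edem1 to Edem2 (0.39), Stt3a to Stt3b (0.10) and Dnajb11 to Dnajb9 (0.22) had adjusted p between 0.212 and 0.379. Ern2 was listed at 0 in 8 of 10 libraries, so its pair with Ern1 says nothing beyond Ern1.

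Among the ligated libraries, ligated 1 stood apart in these genes. It was the highest ligated library for 38 of 54 members (70.4%), against 14.5% of all genes tested. For 14 members it was more than 1.5 times the mean of the other 4, most in Sel1l (2.64 times), Derl3 (2.61 times), Creld2 (2.38 times) and Sdf2l1 (2.28 times), and for 6 members it lay below that mean, lowest in Kdelr3 (0.817 times). Among ligated libraries, ligated 1 also held the highest sum of acinar markers (63298 FPKM) and the lowest of fibroblast markers (1057 FPKM). Its granular duct markers summed to 34859.8 FPKM, against 6255 to 27245 FPKM in the other ligated libraries and 20021 to 41208 FPKM in sham glands. Its plasma cell markers summed to 6848 FPKM, in a ligated range of 324 to 14288 FPKM. Their part in these levels was not tested.

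With ligated 1 left out, 13 members were lower at the adjusted p (background 4.39%) and 1, Canx, was higher (background 54.6%). By both criteria 4 were lower (background 1.77%), namely Sec23b (-1.31), Herpud1 (-1.14), Sel1l (-1.11) and Derl3 (-1.02), and 0 higher (background 17.7%). Sec61b, Sec11c, Sdf2l1, Hyou1, Creld2 and Derl3 passed then and not with all libraries. Of the 54 genes, 9 were lower in ligated 2 to 5 than in any sham library (background 2.81%) and 3 were higher (background 38.9%), against 2 (background 1.12%) and 3 (background 30.2%) with ligated 1 included. The 4 libraries with lymph node transcripts include ligated 1, and without them Herpud1 (-1.17) and Sec23b (-1.27) were lower by both criteria. That fit had only ligated 4 and ligated 5 against sham 2 to 5, and its background is not given here.

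**Figure D4:**
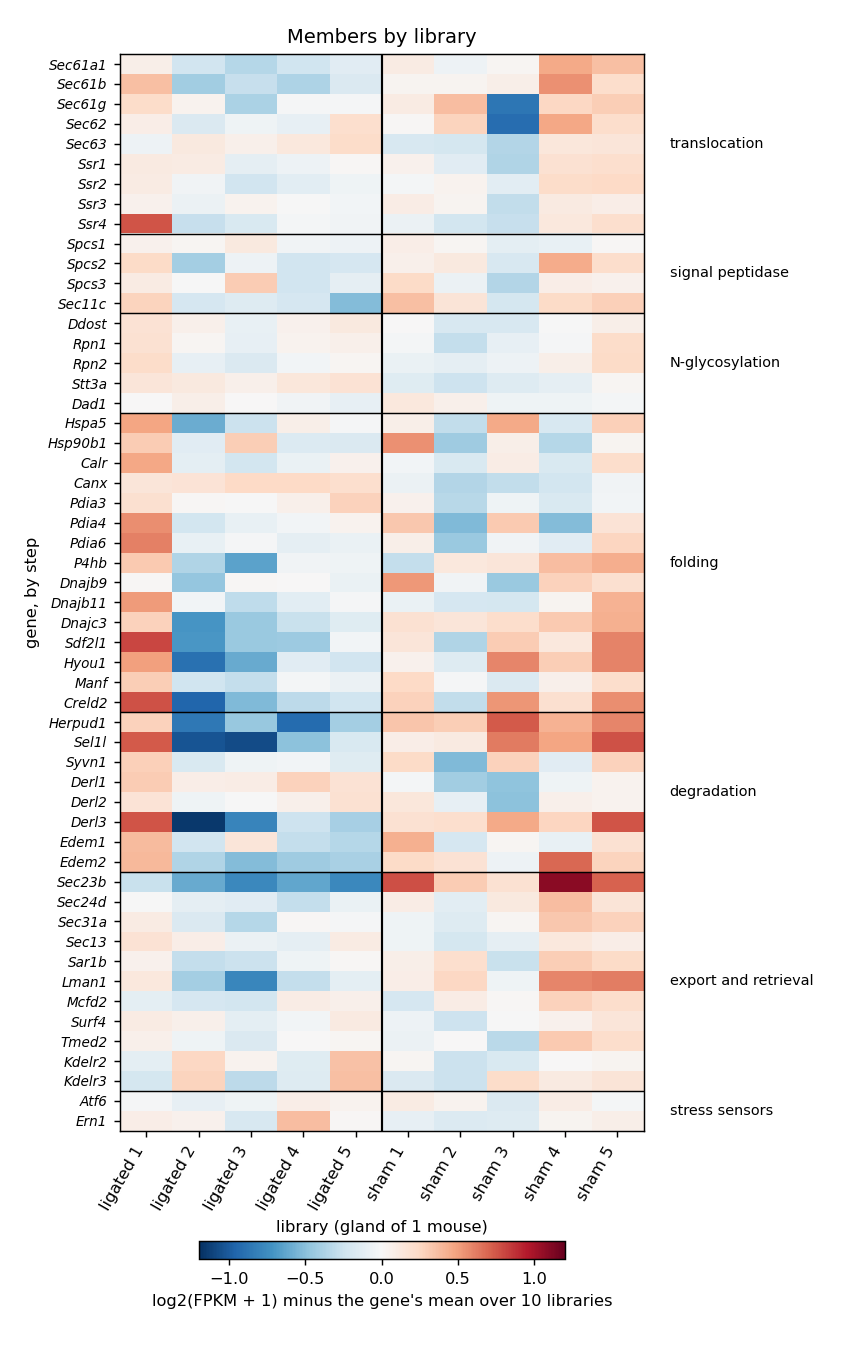
Level of each of the 54 genes (y axis, by step) in each library (x axis), as log2(FPKM + 1) minus the mean of that gene over all 10 libraries, as deposited. Red is above and blue below the mean of the gene. Ligated 1 is redder than ligated 2 to 5 in most folding and degradation genes, and the Sec23b row is blue in all 5 ligated libraries.

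The summed level of the machinery overlapped between groups while that of secreted products did not. The 54 genes summed to 5487, 3603, 3711, 4053 and 4254 FPKM in ligated glands (4222 ± 754, SD, n = 5) and 4593, 4053, 4759, 4735 and 5328 FPKM in sham glands (4693 ± 455, SD, n = 5). A list of 23 secreted products of salivary glands, chosen after the data were seen, summed to 68183 ± 23534 FPKM in ligated glands and 250806 ± 53830 FPKM in sham glands (SD, n = 5 each). The 7 parotid genes are on this list and summed to 4656 to 47428 FPKM in ligated glands and 13683 to 27589 FPKM in sham glands. In ligated 3 they made up 47428 of 68294 FPKM. Mucl2 alone averaged 15168 FPKM in ligated glands and 145906 FPKM in sham glands. For every 100 FPKM of these products there were 5.12 to 8.21 FPKM of the 54 genes in ligated glands and 1.44 to 2.36 FPKM in sham glands. The groups did not overlap in this ratio, which is given without a test and was not taken without the parotid genes.

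As a share of all FPKM the 54 genes took 1.12% ± 0.0932 in ligated glands and 0.860% ± 0.121 in sham glands (SD, n = 5 each), with the highest sham library just above the lowest ligated one. With the 20 highest genes of each library removed from the sum, the order of the means turned round. They were 1.73% ± 0.353 in ligated glands and 2.64% ± 0.506 in sham glands. The groups overlapped here too, with ligated 1 at 2.30% and sham 1 at 1.98%. Those 20 genes took 24.9% to 47.5% of the sum in ligated libraries and 54.1% to 76.3% in sham libraries, and 0 of the 54 were among them.

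**Figure D5:**
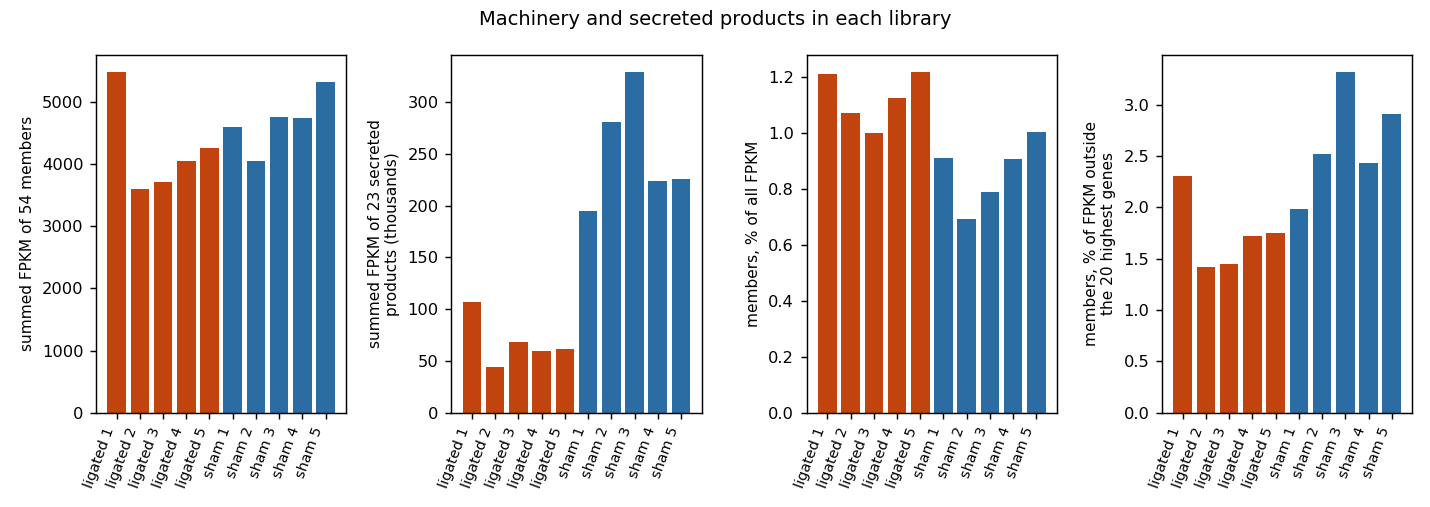
Bars give, for each ligated (orange) and sham (blue) library on the x axis, the summed FPKM of the 54 genes, the summed FPKM of 23 secreted products (axis scaled as labelled), and the share of the 54 genes in all FPKM and in the FPKM outside the 20 highest genes. The sums of the 54 genes overlap between groups, whereas all 5 ligated libraries lie below all 5 sham libraries for the secreted products. The means of the 2 shares differ in opposite directions, and the groups overlap in each.

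Other genes of the same steps, 96 in a list chosen by name, of which 91 were tested, had a median log2 fold change of 0.12. By both criteria 2 were higher (background 17.1%) and 3 lower (background 1.16%). At the adjusted p alone 20 were higher (background 56.8%) and 14 lower (background 3.35%). Of the 91, 81 lay below the median of all genes tested. Lman1l, a relative of Lman1, had 4.52, 12.7, 2.66, 3.31 and 1.97 FPKM in ligated glands, against 55.7, 34.4, 18.7, 128 and 66.2 FPKM in sham glands. It fell by 3.31 ± 0.51 on the log2 scale (limma adjusted p = 0.000679), with no overlap and with an adjusted p under 0.05 in 20 of 20 alternatives.

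Agr2, a disulfide isomerase of mucin-making cells, fell by 1.15 ± 0.31 (limma adjusted p = 0.00977), to 4.68, 2.88, 1.16, 2.16 and 1.29 FPKM in ligated glands, against 4.79, 5.61, 3.80, 11.01 and 7.43 FPKM in sham glands. Without the 4 libraries with parotid transcripts its adjusted p was 0.1002, and without sham 4 its log2 fold change was -0.97. Creb3l4, a membrane-bound transcription factor, fell by 1.47 ± 0.37 (limma adjusted p = 0.00747), to 2.31 ± 1.80 FPKM in ligated glands, against 8.07 ± 3.91 FPKM in sham glands (SD, n = 5 each). Acinar markers were lower in the same libraries, as given above, and their part in these falls was not tested.

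Tmed1, a p24 protein of the early secretory pathway, rose by 1.09 ± 0.19 (limma adjusted p = 0.00131), with 6.41, 9.98, 5.70, 8.91 and 9.69 FPKM in ligated glands, against 3.05, 2.11, 3.08, 3.70 and 4.37 FPKM in sham glands. After quantile normalization its log2 fold change was 0.47 (adjusted p = 0.0733), and without sham 2 it was 0.99. Tram2, which is known to assist collagen synthesis at the translocon, rose by 1.48 ± 0.30 (limma adjusted p = 0.00259). It had 3.56, 8.79, 6.83, 4.69 and 5.53 FPKM in ligated glands, against 3.96, 0.742, 1.13, 1.13 and 0.936 FPKM in sham glands, where sham 1 alone overlapped the ligated range. Fibroblast markers were higher in the same libraries, and their part in the rise was not tested.

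Downstream of the sensors, Xbp1 had 161 ± 27.0 FPKM in ligated glands and 155 ± 25.9 FPKM in sham glands (SD, n = 5 each). Atf4 had 94.7 ± 6.97 FPKM in ligated glands and 89.2 ± 16.0 FPKM in sham glands, and Ddit3 had 10.7 ± 2.23 FPKM in ligated glands and 9.36 ± 2.06 FPKM in sham glands (SD, n = 5 each). These transcription factors of the stress response overlapped between groups and did not pass the test (limma adjusted p = 0.784, 0.553 and 0.370). Eif2ak3, the sensor kinase PERK, had 18.8, 14.1, 16.9, 16.4 and 17.6 FPKM in ligated glands, against 21.9, 21.4, 19.9, 27.0 and 21.98 FPKM in sham glands. Its log2 fold change was -0.40 ± 0.12 (limma adjusted p = 0.0172), and 0.13 with equal sums. Creb3l1, a membrane-bound transcription factor of secretory cells, had 71.2, 84.5, 45.8, 66.1 and 80.0 FPKM in ligated glands, against 119, 124, 101, 154 and 132 FPKM in sham glands, with no overlap. It passed at the adjusted p alone (-0.87 ± 0.19, limma adjusted p = 0.00354), and its adjusted p was under 0.05 in 19 of 20 alternatives, the exception being equal sums (-0.32, adjusted p = 0.217).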

How the data were processed

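Gene expression was measured in 10 submandibular glands, 5 ligated and 5 sham, grouped by the labels. The authors deposited 1 table of FPKM values per gene, aligned to GRCm38 (mm10) per the submitters' processing notes; RNA was prepared with a column kit and a SMARTer mRNA kit per the labels' protocols, and the counting tool is not given in the sources used here. Low values were whole multiples of what 1 read is worth for 98.27% to 98.45% of values in each library (tolerance 0.01), which gave 12105695 to 17305590 assigned reads, so that 3 reads in 1 kb equal 0.173 to 0.248 FPKM. FPKM is a share of a library, so a few very high genes lower the values of all others. The 11856 genes that reached 1 FPKM in 5 or more libraries were tested with limma 3.58.1 (R 4.3.3, trend) on log2(FPKM + 1), with Benjamini-Hochberg adjustment over all of them. Fold changes are on that scale and understate the change of low genes. Ratios of paralogs, on log2(FPKM + 1), were compared with exact permutation tests (scipy 1.17.1, Python 3.11.15). The fit was tested on simulated data in which few genes changed. There the adjusted p alone called a log2 change of 0.5 in 10.4% of changed genes and 1.5 in 82.1%. Many more genes passed in the real data, so the adjusted p was stricter in the simulation. A gene that did not pass is not thereby shown to be unchanged. The p-values measure the spread between these mice.

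The members and lists were chosen with earlier results of these data known, and the list of secreted products and the fit without lymph node transcripts were chosen after the data were seen. Any of the 54 members may be named. Values of every library are given for the largest positive and negative change of each step, for members called and for Hspa5, Sec61a1, Kdelr2, Kdelr3, Derl3, Atf6 and Ern1. Of other genes, those called, both genes of each pair and a few regulators are named. Sdf2l1, Calr and other members given by mean or ratio were picked for description. Alternatives were another pseudocount, other filters, 3 scalings, voom on recovered reads, a replicate block and leaving out libraries. Promoters were taken from RefSeq and gene positions from the GRCm38 annotation. Of the 54 members, 18 share exon bases with another gene, and whether counting used strand is not given in the sources used here.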

Additional observations from a re-analysis of the deposited data

Results flagged for a closer look

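In a group of 5, a library was singled out where its gap to the nearest other was large against the range of the group (Dixon's test), which chance gives in about 1 of 20 groups. This marked 17 of 158 groups examined, among them 9 of the 54 members, and 8.33% of the groups of members against 11.03% of groups over all genes. Of the 9 members, 7 were marked for ligated 1, which was high.

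Ligated 1 had 142 FPKM of Sec61b (82.3 to 97.8 in the other ligated libraries), 73.2 FPKM of Ssr4 (35.5 to 42.5), 163 FPKM of Pdia4 (95.2 to 114) and 123 FPKM of Pdia6 (74.9 to 80.3). It also had 224 FPKM of Creld2 (67.6 to 112), 42.5 FPKM of Syvn1 (30.4 to 33.7), 42.7 FPKM of Edem2 (22.2 to 24.9) and 14.6 FPKM of Ddit3 (9.19 to 10.47). Ligated 2 had 26.4 FPKM of Dnajb9 (34.8 to 37.3 in the other ligated libraries), 5.48 FPKM of Creb3l4 (0.978 to 1.87) and 12.7 FPKM of Lman1l (1.97 to 4.52). Ligated 3 had a log2 ratio of Kdelr3 to Kdelr2 of -1.40 (-1.14 to -1.03) and of Edem1 to Edem2 of 1.205 (0.52 to 0.67).

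Among sham libraries, sham 3 had 69.3 FPKM of Ssr3 (87.4 to 92.0 in the others), sham 4 had 27.0 FPKM of Eif2ak3 (19.9 to 21.98) and sham 1 had 3.96 FPKM of Tram2 (0.742 to 1.13) and a log2 ratio of Sec24d to Sec24c of 0.11 (0.41 to 0.46).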

How the results depend on the processing

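The count of members lower by both criteria (1) was 11 after median-ratio scaling, 0 with equal sums, 10 after quantile normalization, 2 without the lymph node libraries and 1 to 4 with 1 library left out. Members higher at the adjusted p alone (3) numbered 0, 30 and 0 under those 3 scalings, 0 without the parotid libraries, 0 without the lymph node libraries and 1 to 3 with 1 library left out. Members lower at the adjusted p alone (7) numbered 48, 1 and 44 under the scalings, 3 with no filter, 4 with the replicate block, 1 without the parotid libraries and 2 to 13 with 1 library left out. Of the other genes, those higher by both criteria (2) numbered 1, 13 and 0 under the scalings, 5 with a pseudocount of 0.1, 1 with a filter at 5 FPKM, 5 by voom, 4 without the lymph node libraries and 1 to 4 with 1 library left out. Those lower (3) numbered 14 after median-ratio scaling, 11 after quantile normalization, 1 with a filter at 5 FPKM and 2 to 3 with 1 library left out. At the adjusted p alone, others higher (20) numbered 2, 63 and 1 under the scalings, 7 without the parotid libraries, 13 without the lymph node libraries and 15 to 21 with 1 library left out. Others lower (14) numbered 60, 3 and 53, and 3 and 9 without those libraries, and 9 to 18. Background shares for the scalings and for leaving out ligated 1 are given above, and those for the other settings are not given here. The causes were not tested. Replicate numbers did not pair the libraries (correlation of deviations above 0.1 for 3 of 5 numbers). With the replicate block the ratios of Sec23b to Sec23a (-2.16), Sec24d to Sec24c (-0.43) and Creld2 to Creld1 (-1.14) had an exact p of 0.0625, the smallest that block allows. With 1 library left out they ran from -2.38 to -2.03, from -0.50 to -0.38 and from -1.33 to -0.97, that of Derl3 to Derl2 from -1.14 to -0.71 and that of Sec11c to Sec11a from -0.55 to -0.31. Outside the 20 highest genes the share of the 54 averaged 1.73% in ligated and 2.64% in sham glands, with overlap. By adjusted p and fold together, single genes kept their side of the threshold in 1334 results across alternatives, lost a call in 8 and gained one in 33. Genes called in neither fit count among the 1334, so that number does not measure how stable the calls were. At the adjusted p alone calls were lost more often: of the 7 members lower, 1 to 7 were still lower, and of the 3 higher, 0 to 3 were still higher, depending on the alternative.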
